A study of Oryctolagus cuniculus with 8 samples.

Results

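Rods turn light into an electrical signal in their outer segment, a stack of membrane discs. Light leads to activation of the G protein transducin, transducin releases the brake on a phosphodiesterase, and the phosphodiesterase breaks down cGMP, so that cGMP-gated channels close. Arrestin helps to end the response, phosducin holds the beta and gamma subunits of transducin, and the tetraspanins peripherin 2 and ROM1 shape the rims of the discs.

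The genes described here are 9 genes of this machinery, chosen by name: GNAT1, GNB1, PDE6A, PDE6B and CNGA1, which carry the signal, SAG and PDC, which end or regulate it, and PRPH2 and ROM1, which build the disc rim. Of the 25666 rows of the expression table, 7 carried one of these symbols. No row was found under the symbols of the other 2, GNAT1 (transducin alpha) and PDE6B (the beta subunit of the phosphodiesterase), and they were not analysed here. All 7 genes found were among the 12204 protein-coding genes tested. GNB1 is not confined to rods, since the same beta subunit serves G proteins of many cell types.

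RNA was sequenced from 8 retinas of male wild-type Chinchilla rabbits about 10 months old, after 6 months on 1 of 4 diets, with 2 retinas per diet. The normal diet (ND) was standard chow, the high-fat diet (HFD) added 10% lard and 0.5% cholesterol, the high-sucrose diet (HSD) added 40% sucrose, and the combined diet (HFSD) added lard and cholesterol at the same amounts together with 35% sucrose. The comparisons ask whether fat, sucrose or both changed the RNA of the rod machinery. The sources used here do not tie each library to an animal, so p-values measure the spread between these libraries. Levels are FPKM, fragments per 1000 bases of a gene, scaled to the depth of the library, which allows genes of different length to be set side by side.

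The libraries held 15764577 to 22785832 fragments, as recovered from the FPKM values, and 1 fragment on a gene of 1000 bases was worth 0.0439 to 0.0634 FPKM. The 7 genes each rested on 20395 to 154795 fragments per library, so counting error was at most 0.70% of a value. Rods were well represented: the rod transcription factor NRL ranked 10 of all protein-coding genes by mean FPKM. Some other tissue differed between libraries. The summed FPKM of 10 pigment epithelium markers was 331 and 245 in the ND retinas and 26.9 to 82.6 in the other 6, that of 9 muscle markers in 10 rows was 555 in HSD replicate 2 and 54.6 to 97.1 elsewhere, and that of 6 myelin markers was 699 in ND replicate 1 and 45.4 to 467 elsewhere. PVALB made up most of the muscle sum outside HSD replicate 2, at 52.7 to 95.7 FPKM, and was lowest in that library at 49.1. ACTA1, another of the muscle markers, was 105 in HSD replicate 2 and at most 0.71 elsewhere. The part of these tissues in the results was not tested. No marker of the 11 cell type lists that had a row was at 0 in every library.

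The 7 rod genes were among the most abundant RNAs of the retina on every diet. Peripherin 2 had the highest mean level, 4663 FPKM over 8 libraries (rank 6), followed by SAG at 3289 (rank 9), PDC at 2856 (rank 13), ROM1 at 2297 (rank 17), GNB1 at 1824 (rank 21), PDE6A at 927 (rank 48) and CNGA1 at 726 (rank 68). The structural and regulatory genes thus stood above the enzyme and the channel. Together the 7 genes summed to 14758 to 19240 FPKM per retina, or 2.76% to 3.19% of the FPKM of all protein-coding genes.

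No diet changed the level of any of the 7 genes past the test. Using limma on log2(FPKM + 1) with Benjamini-Hochberg adjustment over 12204 genes, 0 of 7 genes were called in HFD, HSD or HFSD against ND, for sucrose, for fat or for the interaction of fat and sucrose. The share of all genes called was itself small, at 0.00819%, 0.0574% and 0.0164% for the 3 diets against ND, 0.344% for sucrose, 0.00819% for fat and 0.00819% for the interaction. At an unadjusted p under 0.05, 0 of 7 genes passed in any of these 6 contrasts, against 4.31%, 7.2%, 8.07%, 18.3%, 3.2% and 3.74% of all genes in the same order. Voom on the recovered fragments also called 0. With 2 retinas per diet, the 95% intervals of the differences from ND extended 0.43 to 0.67 on the log2 scale to either side of the estimate, depending on the gene. In bulk RNA, fewer rods and less RNA per rod cannot be told apart.

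**Figure D1:**
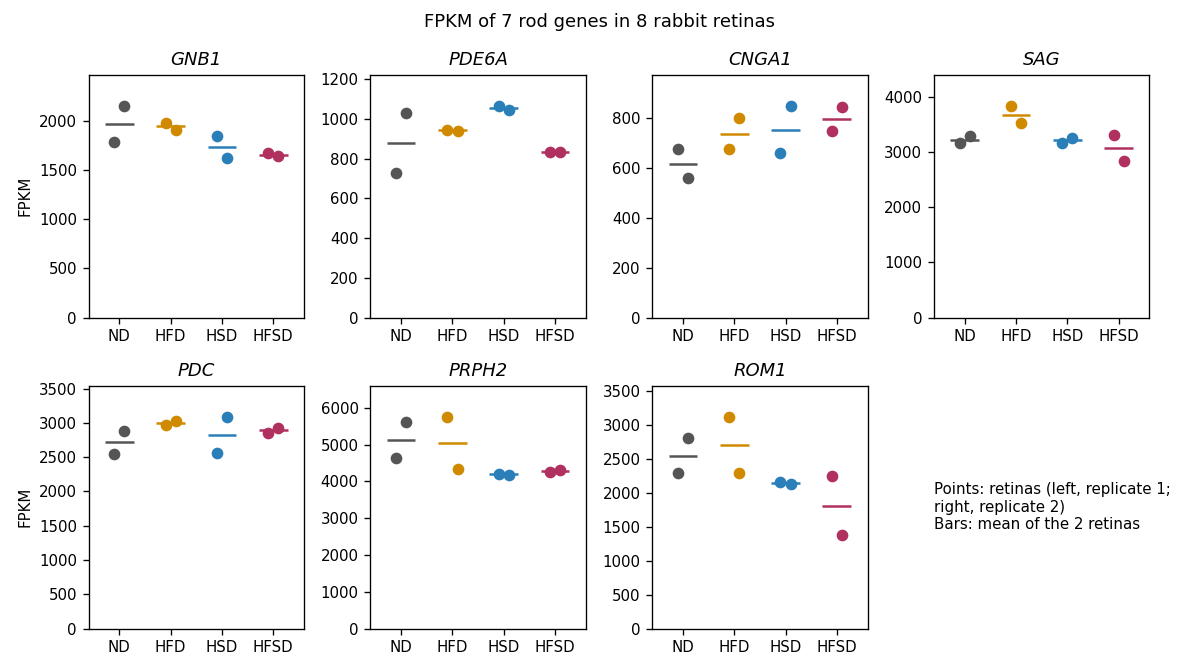
Level of each of the 7 rod genes (FPKM, linear axes from 0) in the 2 retinas of each diet; points are retinas and bars are means of 2. PRPH2 and ROM1 sit lower in the 4 sucrose-fed retinas (4183 to 4321 and 1373 to 2238 FPKM) than in the other 4, PRPH2 by a margin of a few FPKM, while PDC and SAG vary least over the 8 libraries (coefficients of variation 6.91% and 8.82%).

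Among the genes that carry the signal, GNB1 encodes transducin beta. It measured 1785 and 2144 FPKM in the ND retinas, 1978 and 1907 on HFD, 1843 and 1625 on HSD, and 1669 and 1640 on HFSD. The HFSD retinas thus lay below both ND retinas, and those on HFD and HSD overlapped with ND. Group means fell in the order ND, HFD, HSD and HFSD, from 1964 ± 254 to 1654 ± 20.3 (s.d., n = 2), and only the step from HFD to HSD exceeded the s.d. of both neighbours. The log2 difference from ND was −0.01 on HFD, −0.18 on HSD and −0.24 on HFSD, each ± 0.18 (s.e.), and none passed the test. With 1 library left out the HSD difference ran from −0.31 to −0.044 and the HFSD difference from −0.37 to −0.11.

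PDE6A encodes the alpha subunit of the rod phosphodiesterase. Its level was 729.5 and 1029 FPKM on ND, 946 and 938 on HFD, 1063 and 1044 on HSD, and 835 and 834 on HFSD. The ND retinas differed from each other more than any other pair of 1 diet for this gene and spanned the HFD and HFSD values, while both HSD retinas exceeded them. The 3 enriched diets were each tight and lay in the order HSD (1054 ± 13.1), HFD (942 ± 5.70) and HFSD (834 ± 0.570; s.d., n = 2), with no overlap. Against ND the log2 differences were 0.12, 0.28 and −0.05 for HFD, HSD and HFSD, each ± 0.19 (s.e.). The HSD difference hung on the ND retinas, at 0.034 without ND replicate 1 and 0.53 without ND replicate 2. The interaction of fat and sucrose was −0.46 ± 0.26 with a 95% interval of −1.07 to 0.16 and an adjusted P = 0.999 (limma, Benjamini-Hochberg).

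CNGA1, the alpha subunit of the rod cGMP-gated channel, was the least abundant of the 7 genes. It measured 676 and 558 FPKM on ND, 675 and 799.6 on HFD, 659 and 846 on HSD, and 747 and 845 on HFSD. Both HFSD retinas exceeded both ND retinas, and the other diets overlapped with ND. Group means ran from 617 ± 83.1 on ND through 737 ± 88.0 on HFD and 752 ± 132 on HSD to 796 ± 69.3 on HFSD (s.d., n = 2), and only the step from ND to HFD was larger than either s.d. The difference of HFSD from ND, 0.37 ± 0.19 on the log2 scale, was the largest upward difference among the 7 genes (limma, adjusted P = 0.667). It was 0.23 to 0.51 with 1 library left out.

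SAG encodes rod arrestin, which helps to shut off the light response. It measured 3153 and 3279 FPKM on ND, 3820.3 and 3528 on HFD, 3167 and 3244 on HSD, and 3296 and 2826 on HFSD. The HFD retinas lay above both ND retinas, HSD lay within the ND range, and HFSD spanned it. Group means were 3674 ± 207 on HFD, 3216 ± 89.0 on ND, 3206 ± 53.8 on HSD and 3061 ± 333 on HFSD (s.d., n = 2), and only the step from HFD to ND exceeded the s.d. of both neighbours. SAG had the smallest spread within a diet of the 7 genes (0.091 on the log2 scale), and its log2 difference from ND was 0.19 on HFD, −0.005 on HSD and −0.08 on HFSD (s.e. 0.20 each).

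PDC encodes phosducin. Its values were 2552 and 2880.0 FPKM on ND, 2969 and 3023 on HFD, 2566 and 3082 on HSD, and 2858 and 2919 on HFSD. The HFD retinas exceeded both ND retinas by a small margin, and the others overlapped with ND. Over all 8 libraries the coefficient of variation was 6.91%, the lowest of the 7 genes. Means ran from 2716 ± 232 on ND through 2824 ± 364 on HSD and 2889 ± 43.1 on HFSD to 2996 ± 38.3 on HFD (s.d., n = 2), and only the step from HFSD to HFD exceeded both s.d. The log2 differences from ND of 0.14, 0.05 and 0.09 on HFD, HSD and HFSD were each smaller than the s.e. of 0.20, and ran from 0.057 to 0.23 on HFD and 0.004 to 0.18 on HFSD with 1 library left out.

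PRPH2 encodes peripherin 2, the tetraspanin of the disc rim. It measured 4649 and 5610.0 FPKM on ND, 5745 and 4325 on HFD, 4204 and 4183 on HSD, and 4269 and 4321 on HFSD. All 4 sucrose-fed retinas lay in a narrow range below every other retina, but the highest of them and the lower HFD retina were only a few FPKM apart. The means of 5130 ± 679 on ND and 5035 ± 1004 on HFD did not differ beyond their spread, and were followed by 4295 ± 37.0 on HFSD and 4194 ± 15.0 on HSD (s.d., n = 2), a last step larger than both s.d. Sucrose against no sucrose gave a log2 difference of −0.25 ± 0.18, which did not pass the test, and it was −0.15 without HFD replicate 1 and −0.35 without HFD replicate 2. When libraries were scaled to equal total FPKM the difference was −0.17 and the sucrose-fed and other retinas overlapped.

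ROM1, the partner tetraspanin of peripherin 2, varied most. It measured 2283 and 2800.4 FPKM on ND, 3107 and 2285 on HFD, 2161 and 2126 on HSD, and 2238 and 1373 on HFSD. HFSD replicate 2 stood far below the other 7 retinas, and again each sucrose-fed retina lay below each other retina. Means were 2696 ± 581 on HFD, 2542 ± 366 on ND, 2144 ± 25.0 on HSD and 1805 ± 611 on HFSD (s.d., n = 2), and only the step from ND to HSD exceeded both s.d. The sucrose difference was −0.42 ± 0.20 on the log2 scale, with a 95% interval of −0.89 to 0.05, an unadjusted P = 0.074 and an adjusted P = 0.313 (limma, Benjamini-Hochberg), the smallest adjusted P of any of the 7 genes in any contrast. The difference of HFSD from ND was −0.53 ± 0.29, the largest downward difference of the 7 genes. HFSD replicate 2 decided its size: without this library the difference from ND was −0.18 and the sucrose difference −0.24.

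**Figure D2:**
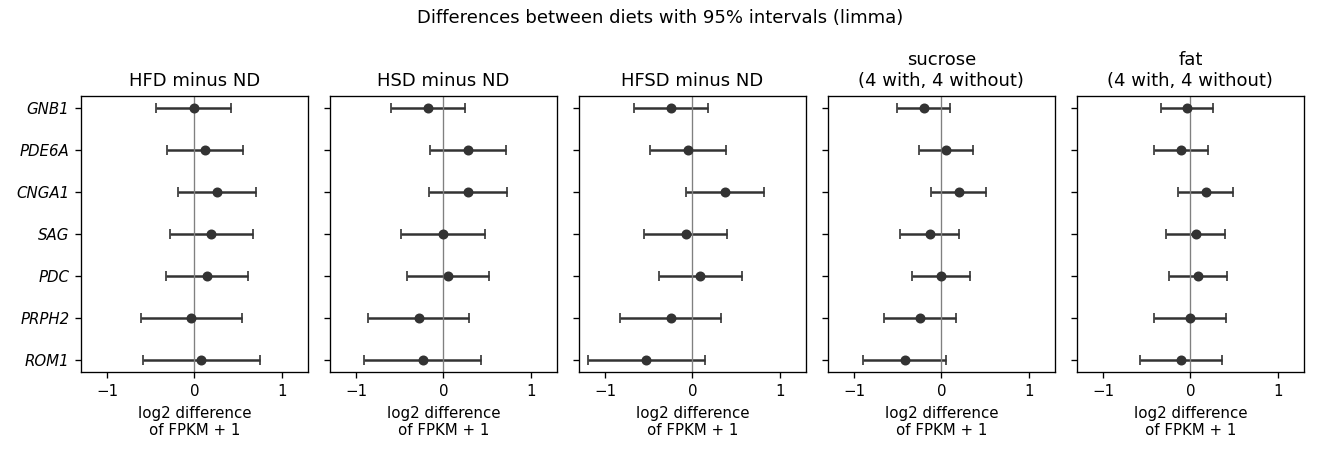
Differences of the 7 rod genes on the log2(FPKM + 1) scale (points) with 95% intervals from limma (bars), for each diet against ND and for the 4 libraries with sucrose or fat against the 4 without. Every interval includes 0, and the largest differences are −0.53 for ROM1 and 0.37 for CNGA1, both on HFSD against ND.

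Counted by direction, the 7 genes did not move one way. On HFD, 5 were higher and 2 lower than ND, with a median log2 difference of 0.12, where the median of all genes was 0.006. HSD gave 3 higher and 4 lower and a median of −0.005, against −0.002 for all genes. Without HSD replicate 2, the library with muscle RNA, the HSD differences ran from −0.28 for PRPH2 to 0.29 for PDE6A with 0 of 7 called (limma), CNGA1 differed by 0.10 in place of 0.28 and PDC by −0.079. HFSD gave 2 higher and 5 lower and a median of −0.08, against −0.004. The median without ND replicate 1 was −0.07 on HFD and −0.30 on HFSD, so that this library decided the direction of the first and the size of the second. The median size of the differences, without sign, was 0.121, 0.238 and 0.242 for HFD, HSD and HFSD, and 0.121, 0.138 and 0.145 over all genes. Fat gave 3 genes higher and 4 lower with a median of −0.0003, and sucrose 3 higher and 4 lower with a median of −0.14. With libraries scaled to equal total FPKM the medians were 0.062 on HFD, 0.050 on HSD, −0.027 on HFSD, −0.055 for sucrose and −0.033 for fat.

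Retinas that did not overlap between diets were common in this table, and the rod genes have to be read against that. On HFD, SAG and PDC were higher than both ND retinas and 0 of 7 were lower, where 12.5% of all genes lay higher and 13.3% lower without overlap. On HSD, PDE6A was higher (19.3% of all genes) and PRPH2 and ROM1 lower (19.7%), with 39.0% of all genes apart in either direction. On HFSD, CNGA1 was higher (21.6%) and GNB1, PRPH2 and ROM1 lower (20.6%), with 42.3% in either direction. Each of these counts is 3 genes or fewer, and no test was made of them against the shares. For sucrose, with 4 libraries against 4, PRPH2 and ROM1 were lower without overlap and 0 of 7 were higher, against 6.48% and 6.39% of all genes, and for fat 0 of 7 genes separated, against 0.68% higher, 0.664% lower and 1.34% in all. PDE6A alone separated in opposite directions for sucrose with and without fat (3.05% of all genes), and 0 of 7 did for fat with and without sucrose (4.92%). Under equal total FPKM, ROM1 alone stayed lower in all sucrose-fed retinas, PDC no longer separated on HFD, and SAG on HSD and PDC on HFSD separated upward. Summed FPKM of markers of some other cells also lay apart by sucrose. For 8 Müller glia markers it was 2588 to 2752 in the sucrose-fed retinas and 3503 to 4733 in the others. Of these 8, 6 were lower and 2 higher with sucrose. GLUL, with the highest mean level, measured 722 to 890 and 1489 to 2127, while SLC1A3 measured 185 to 191 and 180 to 203. The sums were 1446 to 1616 and 871 to 1263 for 9 cone markers, and 9.06 to 12.5 and 13.9 to 23.2 for 7 microglia markers. For 5 horizontal cell markers they were 57.6 to 70.2 and 52.9 to 56.8, apart by a small margin. The sums of bipolar, amacrine, ganglion, pigment epithelium, muscle, myelin and lens markers overlapped. For sucrose, 0 of 8 Müller glia, 2 of 9 cone, 0 of 7 microglia and 0 of 5 horizontal cell markers were called by limma. In the same order, 3, 8, 4 and 3 of these markers passed an unadjusted p of 0.05, where 18.3% of all genes did. Their part in the levels of PRPH2 and ROM1 was not tested.

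By size alone, 0 of 7 genes fell below a fold of 0.65 against ND or rose above its inverse, limits that 1.76%, 3.95% and 3.43% of the 19293 protein-coding genes passed on HFD, HSD and HFSD. The folds of the rod genes, computed from means of FPKM + 1, ran from 0.710 for ROM1 to 1.29 for CNGA1, both on HFSD. ROM1 on HFSD passed the lower limit when ND replicate 1 (fold 0.645) or HFSD replicate 1 (fold 0.540) was left out.

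**Figure D3:**
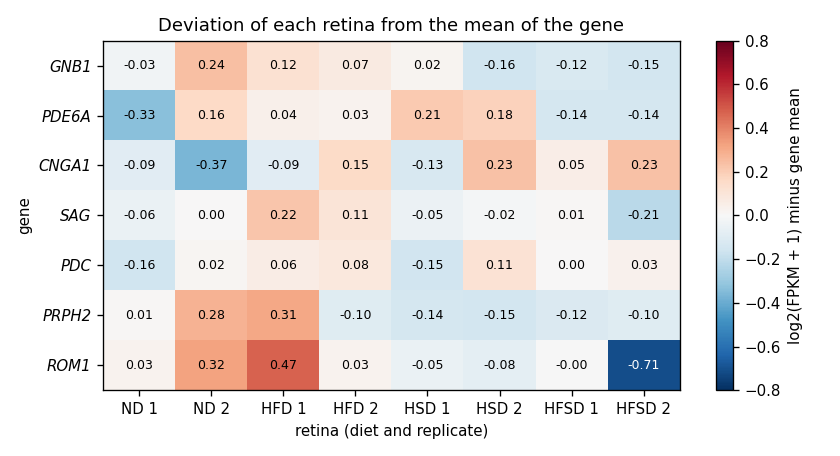
Deviation of each retina from the gene's mean over 8 libraries, on the log2(FPKM + 1) scale, for the 7 rod genes (red higher, blue lower, values printed in the cells). ROM1 in HFSD replicate 2 is the lowest at −0.71 and ROM1 in HFD replicate 1 the highest at 0.47, and ND replicates 1 and 2 differ from each other in most genes.

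By median, retinas of the same diet differed about as much for the rod genes as for all genes tested. Most of those have far lower levels, and genes of like level were not compared. The s.d. within a diet had a median of 0.174 on the log2 scale over the 7 genes and of 0.167 over all genes tested, and reached 0.31 for ROM1. Across the 8 libraries the 21 pairs of genes gave a median Pearson's r of 0.30, with 15 pairs above 0 and 6 below. With libraries scaled to equal total FPKM the median r was 0.059, with 12 pairs above 0 and 9 below. None of the 21 passed Benjamini-Hochberg adjustment (permutation test, two-sided), and 5 had an unadjusted p under 0.05. In the values as deposited, the closest pair by Pearson's r was SAG and ROM1 (r = 0.85, Spearman's ρ = 0.74, exact permutation P = 0.017, adjusted P = 0.121, n = 8), but r fell to 0.13 without the 2 libraries farthest from the median of SAG, HFD replicate 1 and HFSD replicate 2. By Spearman's ρ it was GNB1 and ROM1 (ρ = 0.88, exact permutation P = 0.0072, adjusted P = 0.152, n = 8), with r = 0.73 (exact permutation P = 0.031, adjusted P = 0.162) and r = 0.79 without ND replicate 2 and HSD replicate 2. GNB1 and CNGA1 ran in opposite directions (r = −0.81, ρ = −0.81, exact permutation P = 0.015, adjusted P = 0.121, n = 8), and r was −0.51 without ND replicate 2 and HSD replicate 2. The disc rim partners PRPH2 and ROM1 gave r = 0.71 (ρ = 0.83, exact permutation P = 0.040, adjusted P = 0.169, n = 8), and 0.11 without HFD replicate 1 and ND replicate 2. Those 2 libraries were the farthest from the median of PRPH2. HFSD replicate 2, where ROM1 lay 0.71 below its mean on the log2 scale, stayed in, and r without it was not computed. A pooled r also includes differences between diets. Taken as deviations from the diet means, which leave 4 independent points, r was 0.98 for SAG and ROM1, 0.43 for GNB1 and ROM1, −0.88 for GNB1 and CNGA1, and 0.57 for PRPH2 and ROM1. With equal total FPKM, SAG and ROM1 gave r = 0.67. The highest r was then 0.77 for CNGA1 and PDC, and the lowest −0.89 for CNGA1 and PRPH2.

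Some products of these genes work in pairs, and their ratio within a retina does not depend on the scaling of the library. Peripherin 2 and ROM1 form complexes at the disc rim, and phosducin binds transducin beta. The ratio of PRPH2 to ROM1 was 2.04 and 2.003 on ND, 1.85 and 1.89 on HFD, 1.95 and 1.97 on HSD, and 1.91 and 3.15 on HFSD. It held near the same value in 7 retinas and stood apart in HFSD replicate 2. There ROM1 was at its lowest of the 8 retinas, and PRPH2 lay above the other sucrose-fed retinas. The sucrose difference of 0.17 on the log2 scale (exact permutation test, two-sided, P = 0.543, 4 against 4) became −0.003 without that library. PDC to GNB1 was 1.43 and 1.34 on ND, 1.501 and 1.58 on HFD, 1.39 and 1.90 on HSD, and 1.71 and 1.78 on HFSD. Here 3 of the 4 sucrose-fed retinas exceeded all others, and the sucrose difference was 0.20 (exact permutation P = 0.114, adjusted over 8 ratio tests P = 0.305).

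Cones use their own copies of several rod proteins, and the ratios of PDE6A and CNGA1 to their cone counterparts were computed. PDE6C, the cone phosphodiesterase, measured 30.5 and 26.8 FPKM on ND, 24.8 and 23.6 on HFD, 44.4 and 50.9 on HSD, and 38.7 and 41.5 on HFSD. It rose with sucrose by 0.71 ± 0.085 on the log2 scale (limma, adjusted P = 0.031), with every sucrose-fed retina above every other, while PDE6A differed by 0.05 ± 0.13. The ratio of PDE6A to PDE6C tests that contrast directly. It was 23.9 and 38.4 on ND, 38.1 and 39.7 on HFD, 24.0 and 20.5 on HSD, and 21.5 and 20.1 on HFSD. The sucrose-fed retinas averaged 21.5 ± 1.74 and the others 35.0 ± 7.44 (s.d., n = 4 each), a log2 difference of −0.68 (exact permutation P = 0.057, adjusted P = 0.229). HSD replicate 1 and ND replicate 1 lay at nearly the same ratio, and they alone overlapped.

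CNGA1 could be set beside the cone channel in the same way. CNGA3, the alpha subunit of the cone channel, was low, at 9.23 and 6.48 FPKM on ND, 5.88 and 4.05 on HFD, 11.1 and 10.2 on HSD, and 8.16 and 8.15 on HFSD. CNGA1 to CNGA3 was 73.2 and 86.2 on ND, 115 and 197 on HFD, 59.4 and 83.3 on HSD, and 91.5 and 104 on HFSD. All 4 fat-fed retinas lay above the other 4, but by a small margin, 91.5 in HFSD replicate 1 against 86.2 in ND replicate 2. The log2 difference for fat was 0.70 (exact permutation P = 0.029, the smallest that 4 against 4 libraries allow, adjusted P = 0.229), and it did not pass the correction. It ran from 0.46 to 0.83 with 1 library left out. For sucrose the difference was −0.40 (exact permutation P = 0.343), and −0.59 to −0.12 with 1 library left out. GNAT2, the cone transducin, had no rod partner to set beside it and measured 50.5 to 89.3 FPKM without sucrose and 102 to 112 with it (log2 difference 0.64 ± 0.14, limma, adjusted P = 0.105).

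**Figure D4:**
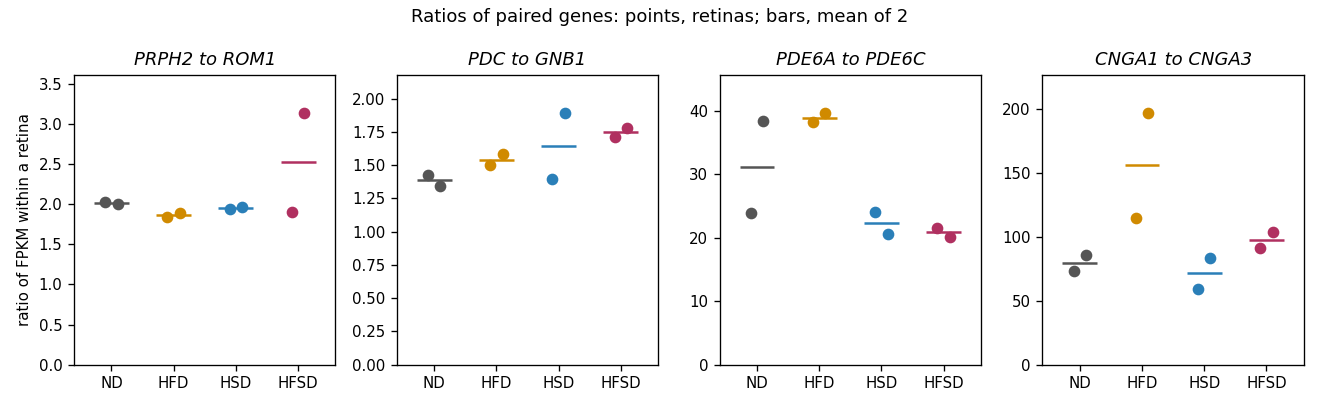
Ratio of FPKM within each retina for 4 pairs of genes (linear axes from 0; points are retinas, bars the mean of 2 per diet). PRPH2 to ROM1 stands apart in HFSD replicate 2 at 3.15, PDE6A to PDE6C is 20.1 to 24.0 in the sucrose-fed retinas, and CNGA1 to CNGA3 is 91.5 to 197 in the fat-fed retinas.

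The wider set of 51 rod genes in 5 lists (light capture and activation, recovery and regulation, outer segment structure and traffic, matrix and retinoids, and transcription factors) held 34 genes with a row, all tested, of which 27 were not among the 7 above. By limma with Benjamini-Hochberg adjustment 0 of 34 were called in any contrast, and 0 by voom for the 7. At an unadjusted p under 0.05, 3 passed for sucrose, where 18.3% of all genes did, and 0 in each of the other 5 contrasts. The 3 were all higher with sucrose: RP1 by 0.44, the guanylate cyclase gene GUCY2D by 0.27 and the matrix gene IMPG1 by 0.27 on the log2 scale, the last 2 of them named after their values were seen. Of the 34 genes, 17 were higher and 17 lower on HFD, 13 and 21 on HSD, and 8 and 26 on HFSD, with median log2 differences of 0.02, −0.06 and −0.11. These splits moved with single libraries. Without ND replicate 2, 22 genes were higher and 12 lower on HFD, 23 and 11 on HSD, and 19 and 15 on HFSD. Without ND replicate 1 the splits were 12 and 22, 8 and 26, and 8 and 26. The HFD split was 12 and 22 without HFD replicate 1, and 21 and 13 without HFD replicate 2. On HSD it was 14 and 20 without HSD replicate 1, and 13 and 21 without HSD replicate 2. The HFSD split was 8 and 26 without HFSD replicate 1, and 13 and 21 without HFSD replicate 2.

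Among the largest differences from ND in the wider set were these. On HFD, RBP3, the retinoid carrier between photoreceptors and pigment epithelium, differed by −0.43 ± 0.26, RGS9, which speeds the shut-off of transducin, by −0.39 ± 0.17, and its anchor RGS9BP by −0.36 ± 0.20 (log2, ± s.e.). On HSD, RP1, a microtubule protein of the outer segment, differed by 0.41 ± 0.24 and the nuclear receptor ESRRB by −0.34 ± 0.19. On HFSD, ESRRB differed by −0.44 ± 0.19 and RP1 by 0.43 ± 0.24, and this comparison shares the ND retinas with HSD. None passed the test, and single libraries set much of their size. Without ND replicate 2, RBP3 differed by −0.099, RGS9 by −0.15 and RGS9BP by −0.28 on HFD, RP1 by 0.20 and ESRRB by −0.038 on HSD, and RP1 by 0.21 and ESRRB by −0.14 on HFSD. Without ND replicate 1, RBP3 differed by −0.75, RGS9 by −0.63 and RGS9BP by −0.44 on HFD. RP1 then differed by 0.62 and ESRRB by −0.63 on HSD, and RP1 by 0.64 and ESRRB by −0.74 on HFSD. RGS9BP on HFD was −0.078 without HFD replicate 2.

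Genes whose level ran most like the mean pattern of the 7 rod genes over the 8 libraries, each gene standardized first, were PTP4A3 (r = 0.977), LDB1 (0.972), ABCC2 (0.971), RBM14 (0.966) and DMAP1 (0.966). Those that ran most against it were ZNF575 (−0.980), PTPRK (−0.979) and ADAM10 (−0.968). They were picked as extremes among all genes tested over 8 points, and no test was made. Set against the mean of the other 6, each of the 7 genes gave r = 0.76 for SAG, 0.63 for ROM1, 0.48 for GNB1, 0.47 for PRPH2, 0.36 for PDC and 0.35 for PDE6A, while CNGA1 gave −0.51. The mean pattern was highest in HFD replicate 1 (0.85 standard units) and lowest in HFSD replicate 2 (−0.66) and ND replicate 1 (−0.61).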

How the data were processed

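Reads of 8 retinal libraries (TruSeq kit, Illumina HiSeq) were quality checked with FastQC and mapped with TopHat2. From these the authors derived FPKM using their own R code. Values as deposited are FPKM, not raw counts, and 0 columns of the table lacked a sample. The genome build and annotation are not given in the sources used here, so no coordinates are given. Reads mapped to several places were discarded, so genes with close copies can be understated. Fragments and depths were recovered from the FPKM steps (100% whole within 0.02 fragments).

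log2(FPKM + 1) of protein-coding genes at 1 FPKM or more in at least 2 libraries was fitted with limma 3.58.1 (R 4.3.3) in 1 model of 4 diets, with a variance trend and Benjamini-Hochberg adjustment over 12204 genes. Calls needed an adjusted p under 0.05. A count model was not fitted to the FPKM, and voom was run on the recovered fragments as an alternative. Ratios were tested with exact permutation over 70 splits, correlations over 40320 orders (SciPy 1.17.1, Python 3.11.15). The fit was tested on simulated data. The members and lists were chosen with earlier results of these data known. Genes named beyond them were those called, the 3 largest differences per diet in the wider lists, the cone counterparts, and the 5 most and 3 least alike in pattern, apart from 1 gene that is not reported here. Alternatives covered pseudocount, filter, scaling, voom, the replicate number as a block, fits of 4 libraries and each library left out.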

Additional observations from a re-analysis of the deposited data

Results flagged for a closer look

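In PDE6A, the alpha subunit of the rod phosphodiesterase, the sucrose-fed retinas lay on opposite sides of the others with and without fat. Without fat, both HSD retinas (1063 and 1044 FPKM) lay above both ND retinas (729.5 and 1029), and with fat both HFSD retinas (835 and 834) lay below both HFD retinas (946 and 938). The interaction was −0.46 on the log2 scale and did not pass the test (limma, unadjusted P = 0.124, adjusted P = 0.999). Of all genes tested, 3.05% separated in opposite directions in this way. Without ND replicate 1 the HSD difference from ND was 0.034. With 1 library left out the interaction ran from −0.71 to −0.21. ND replicate 1 had the lowest PDE6A level of all 8 retinas, and the margin between ND replicate 2 and the lower HSD retina was small.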

How the results depend on the processing

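The 7 genes were recomputed under 16 alternative settings, and 0 of 7 were called in any of them. Of 609 values, 573 kept their direction and 36 reversed. The lowest adjusted p over the alternatives (limma) was 0.707 for HFD, 0.475 for HSD, 0.418 for HFSD, 0.182 for sucrose, 0.874 for fat and 0.603 for the interaction. Outside the omission of libraries, SAG on HSD alone reversed, to 0.0048 with median-of-ratios scaling, 0.050 with equal total FPKM and 0.033 with voom.

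With 1 library left out, the log2 differences that changed sign, and medians that changed sign or moved beyond their spread, ran as follows. HFD against ND gave PDE6A −0.13 to 0.37, ROM1 −0.15 to 0.30, GNB1 −0.14 to 0.12 and PRPH2 −0.24 to 0.17, and the median −0.072 to 0.22. HSD gave SAG −0.033 to 0.024 and PDC −0.079 to 0.18, and the median −0.079 to 0.024. HFSD gave PDE6A −0.30 to 0.19 and SAG −0.19 to 0.036, and the median −0.30 to −0.047. Sucrose gave PDE6A −0.071 to 0.18 and PDC −0.066 to 0.066. Fat gave GNB1 −0.10 to 0.028, PDE6A −0.23 to 0.016, PRPH2 −0.10 to 0.10 and ROM1 −0.28 to 0.069, and the median −0.068 to 0.085. The interaction gave GNB1 −0.19 to 0.077, PRPH2 −0.14 to 0.27, CNGA1 −0.35 to 0.012 and PDC −0.24 to 0.027. PRPH2 to ROM1 ran from −0.0028 to 0.24 for sucrose and −0.078 to 0.18 for fat, and PDE6A to PDE6C from −0.026 to 0.32 for fat. Between 0 and 1 genes passed the fold limits. A lone library left in a diet was taken to vary like the others.

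Libraries with the same replicate number did not deviate together (r −0.16 to 0.08 over 6 pairs of diets), and no label ties them. With the replicate number as a block, 0 of 7 genes were called in each contrast, and the median on HFD stayed at 0.12. A crossed pairing of ND and HFSD, chosen after the data were seen, called 0. The omission of libraries from the wider lists, and equal scaling for the correlations, were also chosen after the data were seen. Sequence comparisons and 5 of 9 planned ratios were not run, since no sequences were given and no row carried the symbols GNAT1 or PDE6B.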
